A study of Mus musculus with 8 samples.

Results

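The Ear and RNase A family clusters are groups of ribonuclease genes on mouse chromosome 14. Here they are the loci of the authors' merged annotation (mm9) that have a coding reference isoform inside either of 2 windows, chr14:44400000-44850000 and chr14:51700000-51900000. A coding reference isoform is one that matches a reference transcript and carries a coding-sequence identifier. By that rule there are 14 member loci, 6 in the first window and 8 in the second, among 31020 loci in all, of which 19989 have a coding reference isoform. The 14 loci hold 21 such isoforms inside the windows, and 21 other loci lie there without one. The windows were proposed with the response of these same libraries known, so every difference between the groups below is a description of the members and carries no test.

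The libraries came from C57BL/6 bone marrow-derived macrophages, which are macrophages grown in culture from marrow. Of the 8 libraries, 4 were from untreated cells and 4 from cells given interleukin-4 (IL-4), the cytokine that marks type 2 immune responses; its dose and time are not given in the labels. No other treatment, genotype or age is given for either group. The series design calls the samples biological replicates, and the labels do not say whether each came from its own animal, so the spread given here is that between these samples and may be partly technical. The libraries numbered 4 had 5808 (untreated) and 5525 (IL-4) counts on chromosome Y, against 0 to 7 in the others. The samples of a group therefore did not all come from 1 animal. Total RNA was measured after depletion of ribosomal RNA, and library totals ran from 23071022 to 27783417 counts. In RNA from a whole culture, more cells that express a gene and more RNA per cell cannot be told apart.

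The RNase A family consists of small secreted ribonucleases, each coded almost wholly within 1 exon. Its members include the eosinophil-associated ribonucleases (Ear genes), which have multiplied in rodents and include antibacterial and antiviral proteins, the angiogenins, which promote vessel growth and cleave tRNA, and the ribonucleases Rnase1, Rnase4 and Rnase6, which act in host defence and in the turnover of RNA outside cells. Some mouse Ear genes are known as genes that macrophages switch on under IL-4, and a cytosolic inhibitor, Rnh1, binds many ribonucleases of the family.

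The deposited files name loci by code (XLOC) and isoforms by code (TCONS) and give no gene symbols. None of the codes was paired with a symbol, so which locus is which family gene was not established. The label of the windows was not checked by symbol, nor the cell type by its markers. In RefSeq's gene order for GRCm38.p6, Ear1, Ear10, Ang5, Ang6 and Ear2 neighbour one another, and Rnase10, Rnase9, Rnase11, Rnase12, Ang, Rnase4, Rnase6, Rnase1, Rnase2b, Ear14 and Rnase2a form another run. The codes below are therefore given with their mm9 positions alone.

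RefSeq (GRCm38.p6) holds promoter windows, each 250 bases before to 50 bases after a transcript start, for 19 of 20 family symbols looked for, 23 windows in all. The 100 bases before the start are printed for 6 chosen genes, to show how alike these 6 are in sequence. Capitals mark TATATCTATGG, the longest run that all 6 share within these bases. The coordinates are GRCm38.p6 and were not converted to mm9. In strand and spacing, the starts of Ear1 and Ear2 match those of XLOC_008362, which lies outside the windows, and XLOC_007787. Those of Rnase2b and Rnase2a likewise match the starts of the isoforms TCONS_00023094 (XLOC_007873) and TCONS_00024659 (XLOC_008453). Whether these are the same genes was not tested.
Ear1, chr14:43819640-43819739, minus strand: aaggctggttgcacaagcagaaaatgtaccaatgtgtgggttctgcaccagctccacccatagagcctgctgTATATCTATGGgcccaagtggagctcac
Ear2, chr14:44102554-44102653, plus strand: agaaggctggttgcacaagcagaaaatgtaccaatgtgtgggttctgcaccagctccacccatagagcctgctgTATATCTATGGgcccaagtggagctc
Ear10, chr14:43923597-43923696, minus strand: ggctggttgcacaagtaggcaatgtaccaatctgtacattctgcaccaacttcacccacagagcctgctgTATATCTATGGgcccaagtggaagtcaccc
Ear6, chr14:51853668-51853767, plus strand: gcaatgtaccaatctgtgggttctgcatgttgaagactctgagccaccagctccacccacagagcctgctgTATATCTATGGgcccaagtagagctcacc
Rnase2a, chr14:51256113-51256212, minus strand: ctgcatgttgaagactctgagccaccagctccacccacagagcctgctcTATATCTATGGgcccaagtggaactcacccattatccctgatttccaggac
Rnase2b, chr14:51162160-51162259, plus strand: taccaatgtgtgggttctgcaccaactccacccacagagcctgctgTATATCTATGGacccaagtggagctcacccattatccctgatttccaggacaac

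Over the aligned part of their windows, the 15 pairs of these 6 genes were between 87.31% and 98.99% identical. The closest pair was Ear1 and Ear2, with 294 of 297 aligned bases the same, and the windows of Ang5 and Ang6, not printed, were identical over all 300 bases. Pairs outside the 6 varied, with 71.72% for Rnase2b and Ang4 over 244 aligned bases and 90.78% for Ang5 and Ang4 over 282. The range of the 6 chosen genes therefore does not stand for the whole family. The run in capitals, searched on both strands, was in the windows of 6 of the 19 genes and in 8 of 32851 promoter windows of the genome (0.0244%). It was picked as a run that the 6 printed genes share, so these 6 matches were fixed in advance and no enrichment is read. It began between -54 and -26 from the RefSeq start. The triplets TTC and GAA with 4 bases between them, the spacing that STAT6, the main transcription factor downstream of IL-4, is known to bind, occurred in 0 of the 23 family windows and in 6.95% of all windows. With 3 bases between them they occurred in 3 family windows, those of Rnase1, Ear14 and Ang4, and in 8.3% of all windows. These are matches of letters in windows of fixed length and not measured sites.

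Most of the coding transcript in the 2 windows was nearly absent from untreated macrophages and came from a few loci after IL-4. The FPKM (fragments scaled to transcript length and to the mapped fragments of the library) of the 21 coding isoforms summed to 44.7, 28.9, 27.9 and 29.1 in the untreated libraries. The sums were 2610, 2897, 3253 and 2702 in the IL-4 libraries. These were 0.00564% ± 0.00140 (SD, n = 4) and 0.490% ± 0.0675 (SD, n = 4) of all FPKM in a library. With IL-4, 2237 of the mean sum of 2866 FPKM lay on 1 isoform, TCONS_00024659, whose locus had 6 counts in that group. Summed over the 14 loci, counts scaled to the library total (CPM) were 70.3 ± 16.4 in the untreated libraries. They were 687 ± 109.8 in the IL-4 libraries (SD, n = 4 each). In the counts, 4 to 6 of the 14 loci had reads in an untreated library and 9 to 11 in an IL-4 library.

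Of the 14 loci, 7 passed the edgeR filter on low counts, and the quasi-likelihood test over all 13761 tested loci called all 7 of these higher with IL-4 (adjusted p under 0.05), where 25.6% of tested loci were called higher and 26.2% lower. The windows were chosen on this contrast and 5 of the 7 passed the filter through the IL-4 group alone, so nothing is read from that count. None was lower in edgeR or DESeq2, at an adjusted or an unadjusted p under 0.05 (0 in each). Every IL-4 library lay above every untreated one at 8 of the 14 loci, against 9.85% of all loci. Among the 21 isoforms 9 were tested in limma and 7 called higher, where 19.8% of 17500 tested isoforms were called higher and 18.5% lower. Of the 9, 5 passed the filter through the IL-4 group alone, so nothing is read from this count either. Among the 9, 0 were lower at an unadjusted p under 0.05. The groups were apart, with IL-4 higher, at 7 of the 21 isoforms, against 7.27% of all isoforms.

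**Figure D1:**
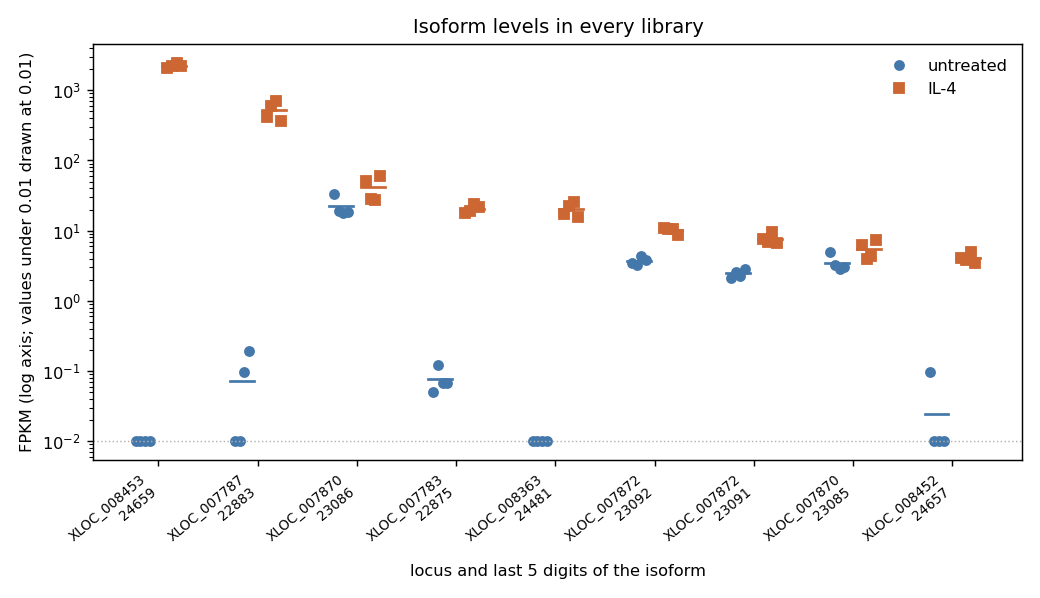
FPKM (log axis) of the 9 coding isoforms with a mean of at least 1 in a group, in each of the 4 untreated (circles) and 4 IL-4 libraries (squares), with the mean as a line and values under 0.01 drawn at 0.01. TCONS_00024659 and TCONS_00022883 stand far above the rest in the IL-4 libraries, and 4 isoforms of XLOC_007870 and XLOC_007872 are the ones well above 0 in untreated cells.

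The isoform with the highest FPKM in the windows was TCONS_00024659 of XLOC_008453, a 2-exon transcript of 690 nt at chr14:51874937-51875787 on the minus strand. Its FPKM were listed at 0 in each of the 4 untreated libraries, and the IL-4 libraries had 2074, 2205, 2453 and 2215, a mean of 2237 ± 157.8 (SD, n = 4). By that mean it ranked 34th among 89208 isoforms. The IL-4 libraries were close to one another, and no fold is given because the depth behind a listed 0 in FPKM is unknown. A longer assembled isoform of the same locus, TCONS_00024658, was likewise listed at 0 in untreated cells and averaged 13.1 ± 0.594 FPKM (SD, n = 4) with IL-4.

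The counts of XLOC_008453 (chr14:51868686-51876313) stood far below what its FPKM stand for. It had 0 counts in each untreated library and 2, 1, 1 and 2 in the IL-4 libraries. Against the 3 counts that a group with 0 counts still allows, the IL-4 count was at least 1.88-fold higher. At the stated lengths and depths the FPKM would stand for 167500 fragments in the IL-4 group, so its 6 counts were 0.00358% of them. Of the exonic bases of the locus, 89.3% are shared with XLOC_007874 on the opposite strand. The counter's settings for strand and for reads shared by loci were not stated, and the part that either plays was not tested.

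XLOC_007787 (chr14:44680319-44681196, plus strand, exons of 66 and 650 nt) was the member with the most counts after IL-4. It had 0, 3, 3 and 4 counts in the untreated libraries and 8474, 12945, 12905 and 6806 in the IL-4 libraries. Every IL-4 library was far above every untreated one, and the fourth and first IL-4 libraries were the lowest of the group. Scaled to library totals this was 0.102 ± 0.0719 against 396.0 ± 129.9 CPM (counts scaled to the library total; SD, n = 4 each), a log2 fold change of 11.96 (SE 0.41). Among all loci it moved from rank 16156 to rank 318 by mean CPM.

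The FPKM of its 2-exon isoform, TCONS_00022883, were 420.4, 597, 692 and 363 with IL-4, a mean of 518 ± 153.0 (SD, n = 4) and rank 154 of all isoforms. In the untreated libraries the FPKM of the whole locus were 0.0427, 0.241, 0.0976 and 0.190. They were split between the 2-exon isoform and a 1-exon isoform of 471 nt (TCONS_00022884) that lies within its second exon, with practically the whole value on 1 of the 2 in each library. With IL-4 practically all of the value was on the 2-exon isoform.

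XLOC_007783 has 7 isoforms, of which the coding one, TCONS_00022875, lies inside the first window at chr14:44503055-44511076 on the plus strand. The others are assembled isoforms, and 2 of them start left of the window. Its counts were 9, 16, 12 and 13 in untreated and 3310, 3657, 3893 and 3720 in IL-4 libraries. All of the untreated values were low and all of the IL-4 values similar, with means of 0.506 ± 0.101 and 139.9 ± 15.5 CPM (SD, n = 4 each) and a log2 fold change of 8.20 (SE 0.14). The coding isoform alone had 0.0764 ± 0.0304 FPKM in untreated cells. With IL-4 it had 17.6, 19.3, 24.2 and 21.6 FPKM, a mean of 20.7 ± 2.88 (SD, n = 4), and the next of the 7 isoforms, TCONS_00022871, averaged 2.90 ± 0.214.

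XLOC_008363, a 1-exon locus of 471 nt at chr14:44500563-44501033 on the minus strand, lies within the span of XLOC_007783, on the opposite strand and outside its exons. Its isoform TCONS_00024481 had 17.0, 22.2, 26.0 and 15.7 FPKM with IL-4 and a listed 0 in each untreated library (IL-4 mean 20.2 ± 4.74, SD, n = 4). That mean does not differ from the one of TCONS_00022875 beyond the spread between libraries. Its counts were 0 in each untreated library and 9, 6, 4 and 3 with IL-4, at least 6.90-fold higher. They were 2.22% of the 992 fragments that its FPKM would stand for, although none of its exonic bases lie in another locus.

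**Figure D2:**
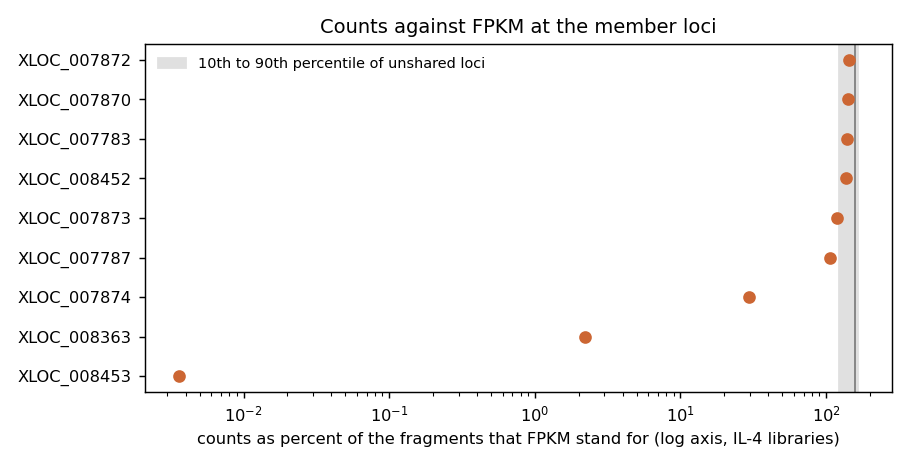
Counts in the IL-4 group as a percentage (log axis) of the fragments that the locus's FPKM stand for, for the 9 member loci with more than 3 counts, with the 10th to 90th percentile (grey) and median (line) of 6978 loci that share no exon, taken over all 8 libraries. XLOC_008453, XLOC_008363 and XLOC_007874 lie far to the left at 0.00358%, 2.22% and 29.65%, and the other 6 lie between 106.6% and 144.4%.

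The member ratios here are those of the IL-4 group alone. Over all 8 libraries, the same ratio was taken in 6978 loci that share no exonic bases and average at least 100 counts. These loci had a median of 157.9%, with 122.3% and 166.7% at the 10th and 90th percentiles. Only 0.158% of them were under 10%. Thus XLOC_008363 and XLOC_008453 had far fewer counts for their FPKM than nearly all such loci, XLOC_007787 at 106.6% and XLOC_007873 at 119.2% were below the 10th percentile, and XLOC_007783, XLOC_007870, XLOC_007872 and XLOC_008452 lay within the range. For the loci with few counts the order of members by count and by FPKM therefore differs: XLOC_008453 leads by FPKM and comes after 8 others by count. How reads that fit several copies were treated in either kind of file was not stated, and its part was not tested. The reference loci were not matched to the members for length. The leading isoforms of XLOC_007787 and XLOC_007873 with IL-4 are short, at 716 and 715 nt, and the part of length in the ratio was not tested.

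XLOC_008452 (chr14:51814996-51821027, minus strand) had 1, 0, 0 and 2 counts without IL-4 and 238, 193, 208 and 195 with it. The 834 counts against 3 make a depth-scaled ratio of 261.7 (exact binomial 95% interval 89.2 to 1272, counting error only), and without the fourth untreated library, which holds 2 of the 3 counts, it was 594.2. Its coding 1-exon isoform of 438 nt, TCONS_00024657, was at 4.13, 3.78, 4.96 and 3.45 FPKM with IL-4. In untreated cells it was at 0.0966 in 1 library and listed at 0 in the other 3.

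XLOC_007874 (chr14:51823365-51884264, plus strand) had 0 counts in every untreated library and 107, 103, 93 and 72 with IL-4, at least 117.7-fold higher. Its FPKM do not lie on its coding isoform, and its counts are not split by isoform. TCONS_00023095, the 1-exon coding isoform of 467 nt, was listed at or next to 0 in all 8 libraries. TCONS_00023096, an assembled isoform whose first exon of 453 nt lies within the coding isoform, had 0.109 ± 0.102 FPKM (SD, n = 4) with IL-4. Most of the FPKM of the locus lay on another assembled isoform, TCONS_00023097, with 1.66 ± 0.192 (SD, n = 4) under IL-4. The authors' annotation codes TCONS_00023097 as lying opposite a reference transcript. That isoform overlaps XLOC_008453, with which the locus shares 54.4% of its exonic bases, and the 2 strands cannot be told apart here.

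XLOC_007873 (chr14:51781908-51782784, plus strand) showed the same at lower levels. It had 0, 2, 3 and 1 counts without IL-4 and 27, 12, 12 and 24 with it, a log2 fold change of 3.56 (SE 0.55). The groups did not overlap, and the counts were low throughout. Its FPKM with IL-4 lay on an assembled spliced isoform (TCONS_00023093, 0.840 ± 0.344, SD, n = 4) and not on the 1-exon coding isoform TCONS_00023094, which stayed under 0.04 in every library.

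Of the 14 members, XLOC_007870 and XLOC_007872 were the ones with more than 50 counts without IL-4. XLOC_007870 (chr14:51710752-51725826, plus strand) had 2017, 1276, 1042 and 1106 counts without IL-4 and 3123, 1816, 1527 and 3680 with it. The groups overlap: the first untreated library, at 81.3 CPM, lay above IL-4 libraries 2 and 3, at 65.4 and 63.7 CPM. The means were 55.1 ± 17.5 and 96.5 ± 37.4 CPM (SD, n = 4 each), with a log2 fold change of 0.91 (SE 0.28). Within the 4 same-numbered pairs the IL-4 library was higher each time, by 1.49, 1.37, 1.41 and 2.95-fold.

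The call of XLOC_007870 rests on single libraries. It was lost without the third untreated library (log2 fold change 0.82), without the fourth IL-4 library (0.70) and without both libraries numbered 4 (0.61). In the main limma fit of FPKM, the tested isoforms of this locus, TCONS_00023086 and TCONS_00023085, were not called. The libraries numbered 4 also stand apart in reads from chromosome Y, 5808 in the untreated and 5525 in the IL-4 library against 0 to 7 in the other 6. The part of that difference in the value was not tested.

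**Figure D3:**
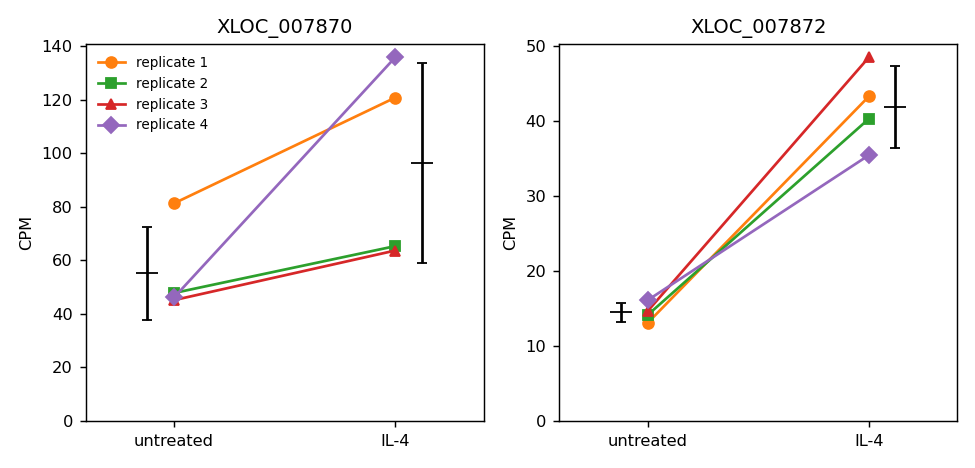
CPM of XLOC_007870 and XLOC_007872 in each library, with lines joining libraries of the same replicate number and bars for the mean ± SD of each group (n = 4). At XLOC_007870 the groups overlap and replicates 1 and 4 are high with IL-4, whereas at XLOC_007872 all IL-4 libraries (35.5 to 48.6 CPM) lie above all untreated ones (13.1 to 16.1 CPM).

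XLOC_007870 is built from 2 alternative first exons and 2 alternative last exons, which gives 4 coding isoforms with a different coding-sequence identifier for each last exon. Ang and Rnase4 are known as a pair of family genes transcribed from shared leading exons; whether XLOC_007870 is that pair was not established. The isoforms with the downstream last exon (1345 nt, chr14:51724482-51725826) made up 86.0%, 85.8%, 85.8% and 85.7% of the locus's FPKM in untreated and 89.3%, 87.2%, 84.6% and 89.0% in IL-4 libraries. The group means, 85.8% ± 0.154 and 87.5% ± 2.16 (SD, n = 4 each), differ by less than the spread of the IL-4 libraries. The upstream first exon carried 98.3% ± 0.639 and 98.8% ± 0.500 (SD, n = 4 each).

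The leading isoform, TCONS_00023086, had 33.5, 19.3, 17.8 and 18.7 FPKM in untreated and 51.3, 27.8, 27.2 and 60.4 in IL-4 libraries. It was the highest coding isoform of the windows in untreated cells and ranked behind TCONS_00024659 and TCONS_00022883 with IL-4, and the groups overlap as they do in counts. TCONS_00023085, with the other last exon, had 3.50 ± 0.966 and 5.45 ± 1.59 FPKM (SD, n = 4 each).

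XLOC_007872 (chr14:51748540-51751859, plus strand) had 324, 377, 338 and 386 counts without IL-4 and 1120, 1121, 1164 and 960 with it. Every IL-4 library was above every untreated one, and the spread within each group was small. The means were 14.5 ± 1.27 and 41.9 ± 5.48 CPM (SD, n = 4 each), the log2 fold change 1.64 (SE 0.10), and the ratios within same-numbered pairs 3.32, 2.86, 3.32 and 2.20.

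Both coding isoforms of XLOC_007872 were higher in the IL-4 libraries. TCONS_00023092 went with 3.71 ± 0.482 and 10.2 ± 1.04 FPKM, and TCONS_00023091, whose exons extend further on both sides, with 2.46 ± 0.333 and 7.72 ± 1.27 FPKM (SD, n = 4 each). The longer isoform was 39.9% ± 4.59 of the locus in untreated and 42.9% ± 3.49 in IL-4 libraries, a difference within the spread between libraries.

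In the IL-4 libraries the coding isoforms at 1 FPKM or more followed the order TCONS_00024659, TCONS_00022883, TCONS_00023086, TCONS_00022875, TCONS_00024481, TCONS_00023092, TCONS_00023091, TCONS_00023085 and TCONS_00024657. The first 3 were apart from their next neighbours in every library. TCONS_00022875 and TCONS_00024481 overlapped each other, and each isoform from TCONS_00023092 on overlapped the next. The order in untreated cells was another one: TCONS_00023086 led, apart from the rest, TCONS_00023092, TCONS_00023085 and TCONS_00023091 followed with overlapping neighbours, and the remaining 5 were under 0.25 FPKM in every library.

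The other 5 member loci had between 0 and 3 counts in the 8 libraries together. XLOC_008366 (chr14:44579491-44579934) had 3 counts with IL-4, XLOC_008451 (chr14:51764677-51766442) had 2 and XLOC_007785 (chr14:44534734-44540745) had 1, all with 0 in untreated cells. XLOC_007871 (chr14:51734101-51737466) and XLOC_008368 (chr14:44740832-44749036) had 0 counts and FPKM of 0 in every library. At these counts no difference between groups was detectable.

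**Figure D4:**
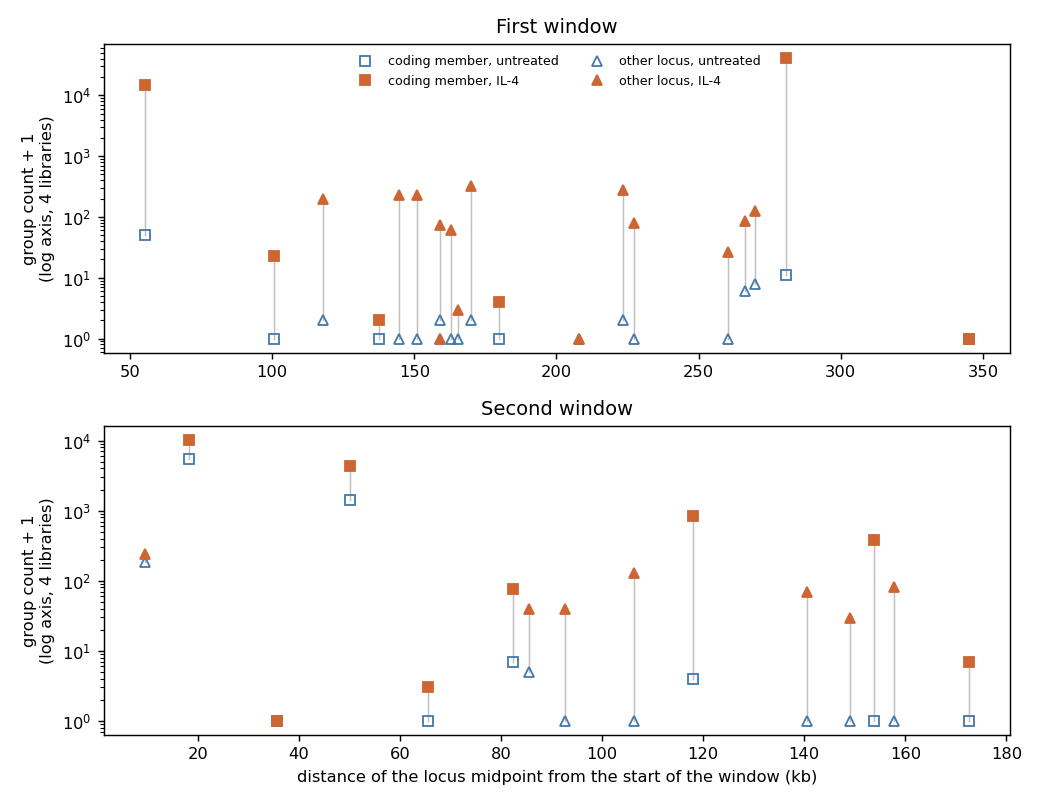
Summed count of each group plus 1 (log axis) for every locus in the first (top) and second (bottom) window, against the distance of the locus midpoint from the start of the window; squares are the 14 coding members and triangles the 21 other loci, open for untreated and filled for IL-4. Loci with many IL-4 counts are scattered among silent ones in both windows, and those with high untreated counts lie near the left end of the second window.

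The windows also held 21 loci that are no members: 20 without a reference transcript and 1 annotated non-coding locus, XLOC_008367, with 0 counts. Together the 21 had 41 to 63 counts in an untreated library, of which XLOC_008765 (chr14:51709041-51710090) supplied 182 of 202 over the group, and 465 to 657 in an IL-4 library. Of 11 tested in edgeR, 10 were called higher and 0 lower, where 25.6% of tested loci were called higher and 26.2% lower. These 10 had 0 to 7 counts in the untreated group and passed the filter through the IL-4 group alone, so nothing is read from that count. The groups were apart with IL-4 higher at 17 of the 21, against 15.6% of the 3653 loci without a reference transcript that had reads. The windows were chosen with such values in view, so this too is a description.

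The largest of these by count in the IL-4 group were 1-exon stretches of unknown strand in the first window. XLOC_008746 (chr14:44568454-44571301) had 1 count in the untreated group and 104, 66, 85 and 71 in the IL-4 libraries, a ratio of 306.9 (exact binomial 95% interval 54.7 to 12160). XLOC_008747 (chr14:44620900-44625654) had 1 count against 61, 85, 61 and 65. XLOC_008765, beside the constitutive XLOC_007870, went with 40, 45, 57 and 40 counts without IL-4 and 68, 66, 47 and 58 with it, and its groups overlap.

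By the coding isoforms that the rule uses, the one nearest the left border inside the first window was that of XLOC_008363; the locus XLOC_007783 itself crosses that border through assembled isoforms. The nearest coding isoform outside it, that of XLOC_008362 (chr14:44396431-44397304), had 0 counts without IL-4 and 4 with it and 0.0656 ± 0.0551 FPKM (SD, n = 4) with IL-4. On the right, the nearest coding isoforms, of XLOC_008368 inside and XLOC_007788 outside, were both at 0. At the second window the nearest coding isoforms outside, of XLOC_008450 on the left and XLOC_007875 on the right, were at 0, and the nearest inside were those of XLOC_007870 and XLOC_008453.

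Of 30 coding loci within 500 kb outside the windows, 20 had no reads in any library and 7 were tested in edgeR, all beside the second window. Called higher were 3 of them and lower 1. Only XLOC_008445 (chr14:51507974-51517844) reached 4-fold, with 2.86 ± 0.937 CPM in untreated and 16.5 ± 3.68 CPM in IL-4 libraries (SD, n = 4 each), a log2 fold change of 2.63 (SE 0.23), where 3.93% of tested loci were called and at least 4-fold higher. The first window stood in a stretch with little other expression: of its 6 coding neighbours, 5 had no reads.

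Among 10790 tested coding loci outside the windows, the 5 whose log2 CPM over the 8 libraries was most like that of XLOC_007787 had Pearson r between 0.9989 and 0.9992. They were XLOC_000907 (chr1:71632097-71699745), XLOC_006456 (chr13:30841086-30859024), XLOC_026504 (chr8:13024777-13058638), XLOC_027917 (chr9:7344397-7369499) and XLOC_023586 (chr6:142770061-142912972). Such values mostly follow the step between the 2 groups, which all these loci share. Among the members r with XLOC_007787 was 0.9979 for XLOC_007783, 0.9959 for XLOC_007874, 0.9941 for XLOC_007872, 0.9902 for XLOC_008452, 0.9342 for XLOC_007873 and 0.6441 for XLOC_007870, whose groups overlap.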

How the data were processed

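The libraries hold DNase-treated total RNA, depleted of ribosomal RNA (Ribo-Zero) and made with TruSeq RNA, per the labels' protocols. The submitters' processing notes name CASAVA 1.8.2, TopHat2 2.0.9, Cufflinks 2.1.1, HTSeq and mm9, with no settings. The authors deposited raw read counts per locus, FPKM per isoform, and the merged annotation, whose coordinates are 1-based; per the file headers all value columns carry a library code, and 0 were left over.

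Windows, members and lists were chosen with earlier results of these data known. Named were all member loci, isoforms at a mean FPKM of at least 1 in a group, neighbours called at 4-fold or more, and the 5 loci most like XLOC_007787. Gene lists (RNase A family, cell markers) matched 0 codes and were not used for values.

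Counts were fitted with edgeR 4.0.16 in R 4.3.3 (TMM, default filter, quasi-likelihood, Benjamini-Hochberg over all loci); the SE comes from the F value. FPKM were fitted with limma 3.58.1 on log2(FPKM + 0.1), which understates changes of low isoforms, for isoforms at 1 FPKM or more in at least 4 libraries. Both fits were tested on simulated data. Fragments implied by FPKM are FPKM × length × library total. Replicates of a group differed beyond counting noise (chi-square per degree of freedom 4.79 to 41.4). The main fits were unpaired, with group as the only term. Only the replicate block and the ratios of same-numbered libraries took the replicate numbers in the titles to pair the libraries. Deviations of same-numbered libraries from their group means correlated at 0.390, 0.149, 0.228 and 0.179. Some differently numbered pairs were also positive (untreated 3 with IL-4 2 at 0.261, untreated 2 with IL-4 3 at 0.132), so numbers 2 and 3 are not set apart by this check. Alternatives were RLE and upper-quartile factors, DESeq2 1.42.0, no filter, other pseudocounts, quantile normalization, a replicate block and leaving out libraries. Folds against 0 use 3 counts per group; floors and intervals cover counting error only, and for FPKM the depth behind a value is unknown.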

Additional observations from a re-analysis of the deposited data

Results flagged for a closer look

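The first untreated library lay far from the other 3 at XLOC_007870, with 81.34 CPM against 45.2 to 47.8 CPM (gap of 0.927 of the range). The same library stood out for its leading isoform, TCONS_00023086, with 33.49 FPKM against 17.8 to 19.3 (0.902 of the range). It was also the only untreated library with a value for TCONS_00024657, 0.09656 FPKM against 0 in the others. With 0 in the others, the gap is the whole range by construction. The locus of that isoform had 1 count there and 2 in the fourth untreated library, so the counts do not set the first apart. The measure was Dixon's ratio of gap to range at its 95% level. In all 29 groups of values were checked and chance flags about 1 in 20, and the first 2 are the same reads seen in counts and in FPKM.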

How the results depend on the processing

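Across normalization, tool, filter and left-out libraries, the number of member loci called higher was between 6 and 9 against 7, and the number called lower was 0 throughout. XLOC_007870 lost its call without the third untreated library, the fourth IL-4 library or both libraries numbered 4, and these fits gave 6. Counting every locus inside the windows, coding or not, gave 17, by construction a larger set. With the replicate block 7 loci and 9 isoforms were called higher, the added isoforms being those of XLOC_007870, and no other call changed. The number of isoforms called higher ran from 7 to 9. Of 209 other values of single loci and isoforms, 200 stayed within 1 SD, 9 moved (pseudocounts and quantile normalization of FPKM) and 0 reversed. That limit is wide. The ratio of XLOC_008452 ran from 190.8 to 613.9 and the log2 fold change of XLOC_007870 from 0.61 to 1.17, and all of these counted as within it. Depth limits the 5 loci with 3 counts or fewer, and the counts of XLOC_008453 and XLOC_008363 are far below what their FPKM stand for; the cause was not tested.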
